A study of Mus musculus with 15 samples.

Results

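In whole lungs of mice given rod-like carbon nanotubes (rCNT, fibre-shaped particles), 4 genes of red cells and 5 genes of platelets were followed by array. They are the genes whose probes carry a RefSeq accession of Alas2, Hbb-b2, Bpgm or Slc4a1 (erythroid) or of Gp1ba, Gp9, Itga2b, Pf4 or Ppbp (platelet). Each of these 9 genes had 1 probe, among 20972 named genes with a probe and 15841 named genes bright enough to be tested, and all 9 were tested. After aspirated rCNT, Alas2 and Hbb-b2 were 2.43-fold and 2.28-fold lower than after saline, while the platelet chemokine gene Pf4 was 1.59-fold higher. After inhaled rCNT, 8 of the 9 genes were lower than in untreated lungs and Pf4 did not pass the test. By the same test 32.5% of all tested genes were lower and 28.4% higher.

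The 15 lung samples came from female C57BL/6 mice aged 7 to 8 weeks and were taken 24 h after the last exposure. The aspirated rCNT group (4 samples) was given 10 µg of rCNT daily over 4 days, suspended in 50 µl of saline buffered with phosphate (PBS), as a drop drawn into the lung from the throat. The PBS group (4 samples) was given 50 µl of PBS the same way. The inhaled rCNT group (3 samples) breathed an aerosol of 6.2 to 8.2 mg per cubic metre for 4 h per day on 4 days, and the untreated group (4 samples) was its control. The labels leave unstated if each sample is 1 mouse or a pool, and if blood was flushed from the lungs. The names of the scanner files of all 7 samples of the inhalation groups hold the word pool. What the p-values measure is then only how far these samples spread, which may be technical. Untreated replicate 1 has a title that names aspiration of PBS, but all its other labels call it untreated, and it was kept in that group.

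Mature red cells and platelets have no nucleus. The RNA that marks them in a tissue comes from young red cells (reticulocytes), from the platelets, and from the precursors of both, and the lung holds circulating blood and resident megakaryocytes, the cells that shed platelets. Red cell genes serve haemoglobin, its haem group and the membrane, and platelet genes serve adhesion receptors and the contents of the granules. In RNA of a whole tissue, fewer cells of a type and less RNA per cell cannot be told apart.

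Values are log2 normalised intensities of the sample's own colour channel. In each sample 54.6% to 64.7% of spots stood well above background, and replicates correlated at 0.9939 to 0.998. Slide 1 held the 8 samples of the aspiration groups and slides 2 and 3 held the 7 of the inhalation groups, so route, slide and kind of control cannot be told apart in any comparison across routes. A gene was called when the adjusted p of limma's test, by Benjamini-Hochberg over the 25255 genes and unnamed transcripts tested, was below 0.05. Differences are adjusted for dye and are given with their standard error (SE).

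The sequences just before the start of 4 of the genes are shown because the genes behaved differently: Alas2 and Gp1ba fell after both exposures, Pf4 rose after aspiration, and Ppbp, its direct neighbour on chromosome 5, fell after both. They are the 250 bases before the start in the RefSeq annotation of GRCm38.p6, from which 7 of the 9 genes matched an entry (Slc4a1 and Hbb-b2 are the others). Capitals mark the letters AGATAA or the letters AGATAG, and likewise the letters TGATAA or the letters TGATAG, on either strand, the core that GATA factors, regulators of red cells and megakaryocytes, are known to bind. Alas2 lies at chrX:150547167-150547416, Gp1ba at chr11:70638872-70639121, Pf4 at chr5:90772185-90772434 and Ppbp at chr5:90768268-90768517, all on the plus strand.
Alas2: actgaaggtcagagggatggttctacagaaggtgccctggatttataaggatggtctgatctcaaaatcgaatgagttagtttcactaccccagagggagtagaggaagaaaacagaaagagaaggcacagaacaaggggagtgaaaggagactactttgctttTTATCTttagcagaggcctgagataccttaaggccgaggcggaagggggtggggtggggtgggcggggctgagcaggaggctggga
Gp1ba: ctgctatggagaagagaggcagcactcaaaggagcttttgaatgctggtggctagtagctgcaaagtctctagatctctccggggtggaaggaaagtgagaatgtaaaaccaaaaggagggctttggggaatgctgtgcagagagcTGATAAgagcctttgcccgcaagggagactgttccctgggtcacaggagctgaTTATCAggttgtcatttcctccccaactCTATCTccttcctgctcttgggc
Pf4: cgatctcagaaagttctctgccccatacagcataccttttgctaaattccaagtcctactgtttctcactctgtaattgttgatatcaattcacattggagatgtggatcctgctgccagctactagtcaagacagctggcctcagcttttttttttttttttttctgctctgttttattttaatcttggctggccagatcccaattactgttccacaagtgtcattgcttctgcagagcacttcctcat
Ppbp: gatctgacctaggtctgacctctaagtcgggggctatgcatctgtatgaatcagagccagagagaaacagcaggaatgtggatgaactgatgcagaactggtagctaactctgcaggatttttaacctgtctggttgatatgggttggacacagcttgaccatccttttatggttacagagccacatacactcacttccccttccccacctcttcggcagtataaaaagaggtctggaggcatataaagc
The Alas2 window held 1 match, from 86 to 81 bases before the start. The Gp1ba window held 3, from 104 to 99, from 51 to 46 and from 23 to 18 bases before the start. The Pf4 and Ppbp windows held 0, as did those of Bpgm, Gp9 and Itga2b. Of 32851 windows of 250 bases in the same table, 26.5% held a match. A match describes the letters of the window only.

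**Figure D1:**
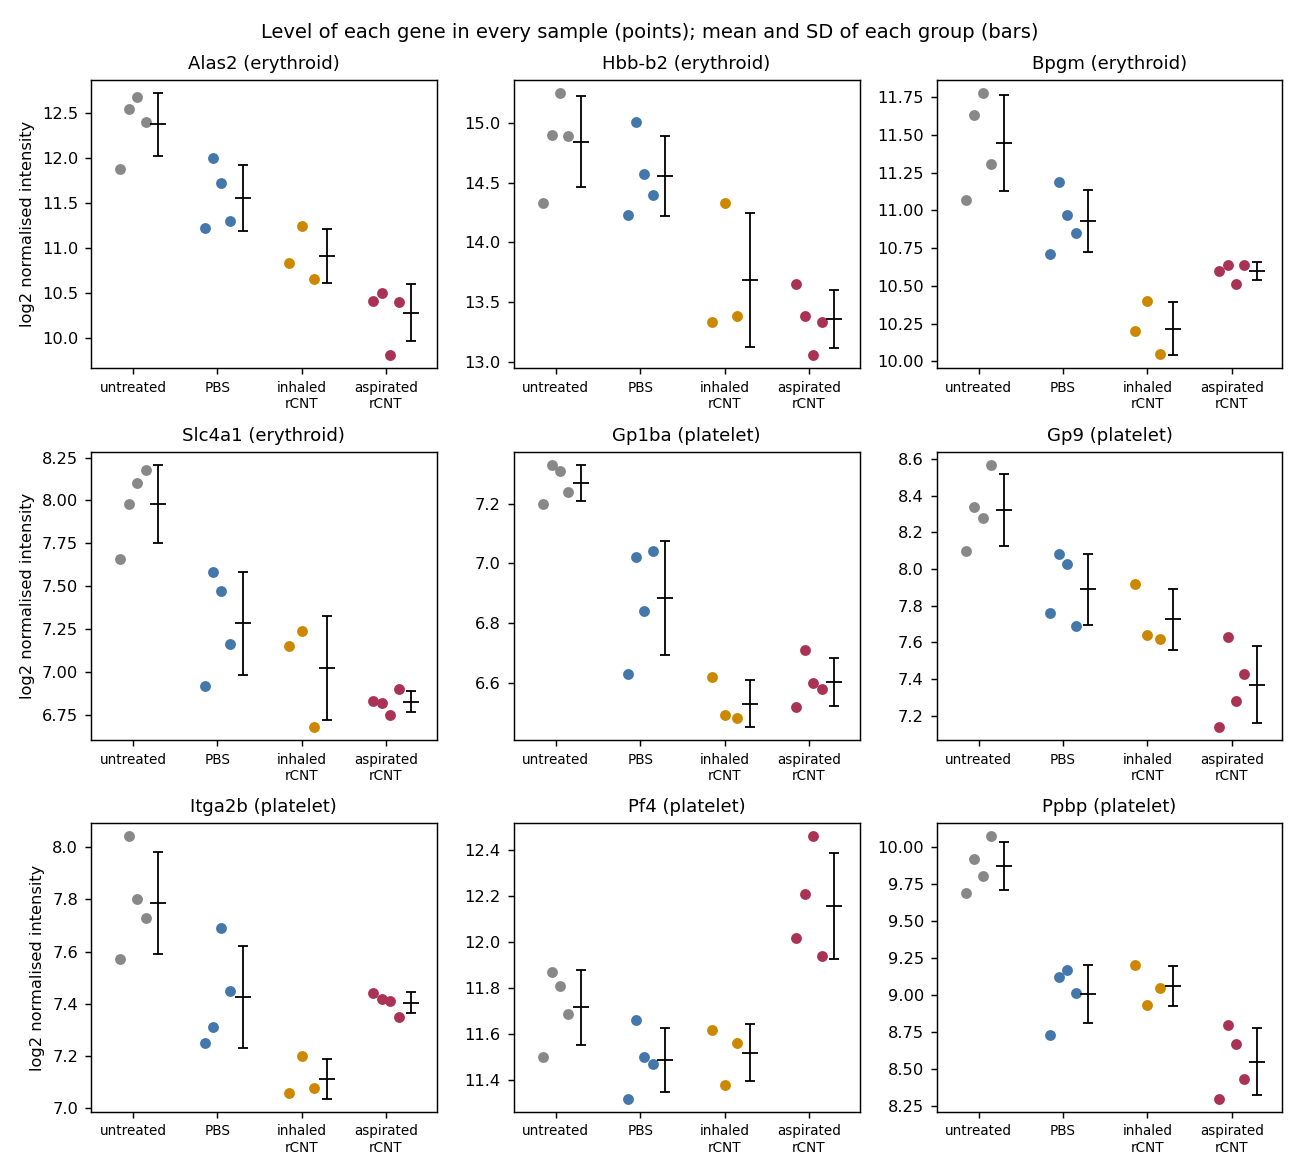
Log2 normalised intensity of the 9 genes (y axis, a separate scale for each gene) in every sample of the 4 groups (x axis). Points are samples and the bars beside them give the mean and SD of the group; Alas2 is lowest after aspirated rCNT, where Pf4 is highest.

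The first comparison addressed aspirated rCNT against aspirated PBS. Of the 9 genes 1 was higher and 7 were lower, where 20.7% of all tested genes were called higher and 26.4% lower. All 4 erythroid genes fell, and among the platelet genes Gp9, Ppbp and Gp1ba fell, Pf4 rose and Itga2b did not pass. The groups did not overlap for 6 of the 9 genes, 5 lower and 1 higher, against 23.2% of all genes lower and 19.2% higher without overlap.

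Alas2 encodes the erythroid form of the first enzyme of haem synthesis. Its levels were 10.41, 10.50, 9.81 and 10.40 after aspirated rCNT and 11.22, 12.00, 11.72 and 11.30 after PBS. All 4 exposed samples lay below all 4 PBS samples, and the difference was -1.28 ± 0.20 (limma adjusted p = 6.14e-05). Aspirated rCNT replicate 3 lay apart from the other exposed samples, and without it the difference was -1.07 (adjusted p = 0.000157).

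Hbb-b2 encodes an adult beta globin chain of haemoglobin. Its levels were 13.65, 13.39, 13.06 and 13.34 after aspirated rCNT and 14.23, 15.01, 14.57 and 14.40 after PBS. The groups did not overlap and the difference was -1.19 ± 0.19 (limma adjusted p = 7.77e-05). The adult beta globin genes are nearly identical, and C57BL/6 mice carry the haplotype whose genes are named Hbb-bs and Hbb-bt, so signal of this probe cannot be told apart from that of these copies.

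Bpgm encodes bisphosphoglycerate mutase, which makes the compound that lowers the oxygen affinity of haemoglobin. Its levels were 10.60, 10.64, 10.51 and 10.64 after aspirated rCNT and 10.71, 11.19, 10.97 and 10.85 after PBS. The groups lay close but did not overlap, and the difference was -0.33 ± 0.11 (limma adjusted p = 0.024). This call was lost without aspirated rCNT replicate 1 (adjusted p = 0.071) or 3 (0.0899), without PBS replicate 2 (0.0796) or 3 (0.0807), and with median centring (0.0588), loess normalisation (0.0573) or no dye term (0.0509). Its adjusted p over all alternatives lay between 0.0111 and 0.0967.

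Slc4a1 encodes band 3, the anion exchanger of the red cell membrane. Its levels ranged from 6.75 to 6.90 after aspirated rCNT and from 6.92 to 7.58 after PBS. The highest exposed sample lay just under the lowest PBS sample, and the difference was -0.46 ± 0.14 (limma adjusted p = 0.0147). It was -0.37 without PBS replicate 2 (adjusted p = 0.0568) and -0.37 without PBS replicate 3 (0.0598), where it no longer passed.

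Pf4 encodes platelet factor 4, a chemokine of the alpha granules of platelets that macrophages are also known to express. Its levels were 12.02, 12.21, 12.46 and 11.94 after aspirated rCNT and 11.32, 11.66, 11.50 and 11.47 after PBS. All 4 exposed samples lay above all 4 PBS samples, and the difference was 0.67 ± 0.11 (limma adjusted p = 7.61e-05). The highest sample, replicate 3, was the one lowest in Alas2.

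Ppbp encodes pro-platelet basic protein, another chemokine of the same granules. Its levels were 8.30, 8.80, 8.67 and 8.43 after aspirated rCNT and 8.73, 9.12, 9.17 and 9.01 after PBS. The groups overlapped in 1 pair of samples, exposed replicate 2 lying above PBS replicate 1, and the difference was -0.45 ± 0.12 (limma adjusted p = 0.00527). The neighbouring genes Ppbp and Pf4 thus differed in sign in this comparison.

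The other 3 platelet genes encode parts of receptors. Gp9, a subunit of the receptor for von Willebrand factor, ranged from 7.14 to 7.63 after aspirated rCNT and from 7.69 to 8.08 after PBS and fell by 0.52 ± 0.12 (limma adjusted p = 0.00158). Gp1ba, the ligand-binding subunit of the same receptor, ranged from 6.52 to 6.71 and from 6.63 to 7.04 and fell by 0.28 ± 0.08 (limma adjusted p = 0.00834). These ranges overlapped. Itga2b, the alpha chain of the fibrinogen receptor, was at 7.44, 7.42, 7.41 and 7.35 after aspirated rCNT and at 7.25, 7.31, 7.69 and 7.45 after PBS, a difference of -0.02 ± 0.10 (limma adjusted p = 0.871). The exposed samples lay inside the range of the PBS samples, and without PBS replicate 3 the difference was 0.09.

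The probes of Gp1ba and Slc4a1 are dim, and the correction used adds a constant to every signal, which shrinks differences of dim probes. With the processed signal of the scanner software Gp1ba was at -0.80, Slc4a1 at -0.93 and Gp9 at -0.82, and all 3 were called.

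**Figure D2:**
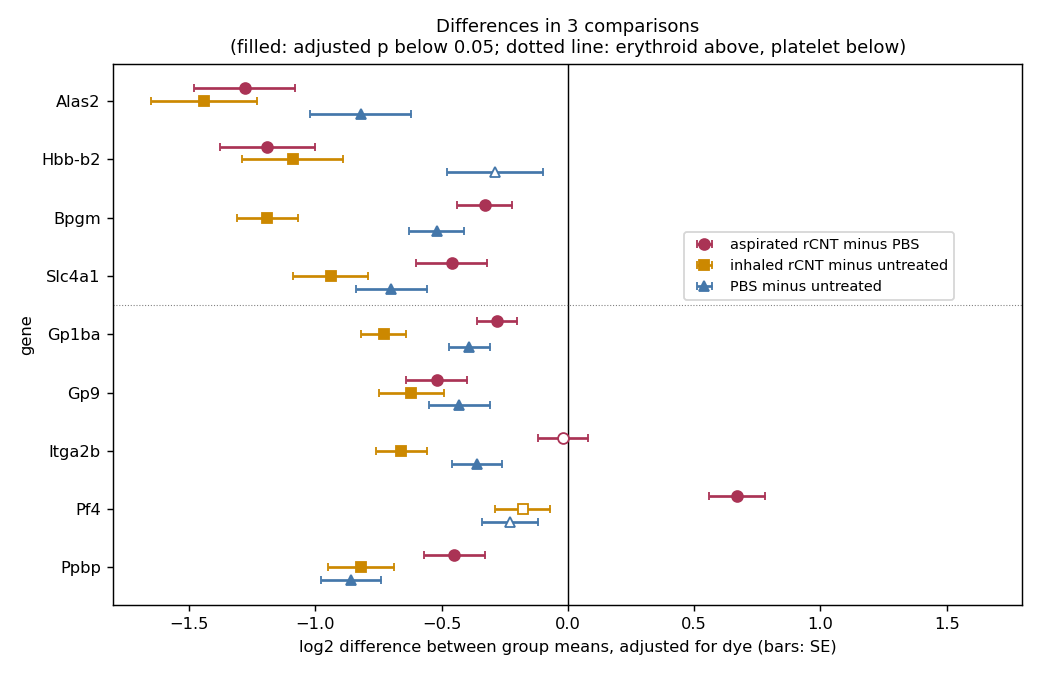
Log2 difference between group means (x axis, bars are SE) of each of the 9 genes (y axis) in 3 comparisons; filled symbols passed the test. Pf4 after aspiration, at 0.67, is the only symbol to the right of 0.

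The second comparison addressed inhaled rCNT against untreated lungs. Of the 9 genes 8 were lower and 0 higher, where 32.5% of all tested genes were called lower and 28.4% higher. All 4 erythroid genes and 4 of the 5 platelet genes fell, by 0.62 to 1.44 on the log2 scale. The groups did not overlap for 7 genes, all lower, against 29.2% of all genes lower and 25.7% higher without overlap. Slides 2 and 3 each held samples of both groups, and the values within each slide stand beside the pooled ones. Slide 2 held inhaled rCNT replicate 1 with untreated replicates 1, 2 and 3. Slide 3 held inhaled rCNT replicates 2 and 3 with untreated replicate 4. A lone sample thus stood for inhaled rCNT within slide 2 and for untreated lungs within slide 3, so these values describe size and sign only.

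Alas2 was at 10.83, 11.24 and 10.66 after inhaled rCNT and at 11.88, 12.54, 12.68 and 12.40 in untreated lungs. All exposed samples lay below all untreated ones, and the difference was -1.44 ± 0.21 (limma adjusted p = 2.87e-05). It was -1.41 within slide 2 and -1.55 within slide 3. Untreated replicate 1, whose title names a PBS aspiration, was the lowest of its group in all 9 genes. Without it 8 genes were called lower after inhaled rCNT, with Alas2 at -1.60, Bpgm at -1.30, Hbb-b2 at -1.22, Slc4a1 at -1.04, Ppbp at -0.90, Gp1ba at -0.74, Gp9 and Itga2b at -0.73, and Pf4 at -0.24 not called.

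Hbb-b2 was at 13.34, 14.33 and 13.39 after inhaled rCNT and at 14.33, 14.90, 15.25 and 14.89 in untreated lungs. Exposed replicate 2 met the lowest untreated sample while the other exposed samples lay about 1 unit lower, and the difference was -1.09 ± 0.20 (limma adjusted p = 0.00025). It was -1.22 within slide 2 and -1.23 within slide 3.

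Bpgm was at 10.20, 10.40 and 10.05 after inhaled rCNT and at 11.07, 11.63, 11.78 and 11.31 in untreated lungs. The groups did not overlap and the difference was -1.19 ± 0.12 (limma adjusted p = 6.36e-07), with -1.15 within slide 2 and -1.19 within slide 3. Slc4a1 ranged from 6.68 to 7.24 and from 7.66 to 8.18 and fell by 0.94 ± 0.15 (limma adjusted p = 7.62e-05), with -0.63 within slide 2 and -1.32 within slide 3.

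Ppbp was at 9.20, 8.93 and 9.05 after inhaled rCNT and at 9.69, 9.92, 9.80 and 10.07 in untreated lungs. The groups did not overlap and the difference was -0.82 ± 0.13 (limma adjusted p = 5.29e-05), with -0.60 within slide 2 and -1.08 within slide 3. Pf4, beside it on the chromosome, was at 11.62, 11.38 and 11.56 and at 11.50, 11.87, 11.81 and 11.69. These groups overlapped, and the difference of -0.18 ± 0.11 did not pass (limma adjusted p = 0.192). With median centring in place of quantile normalisation Pf4 was at -0.57 and passed (adjusted p = 0.000257), while that setting moved the median of all genes from -0.02 to -0.15.

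The receptor genes fell together after inhalation. Itga2b was at 7.06, 7.20 and 7.08 after inhaled rCNT and at 7.57, 8.04, 7.80 and 7.73 in untreated lungs, without overlap, and fell by 0.66 ± 0.10 (limma adjusted p = 4.9e-05). Gp1ba was at 6.62, 6.49 and 6.48, well above background in 2 of these 3 samples, and at 7.20, 7.33, 7.31 and 7.24, and fell by 0.73 ± 0.09 (limma adjusted p = 2.66e-06). Gp9 ranged from 7.62 to 7.92 and from 8.10 to 8.57 and fell by 0.62 ± 0.13 (limma adjusted p = 0.000544). Within slide 2 Gp9 was at -0.36 and did not pass (adjusted p = 0.129), and within slide 3 it was at -0.91. Itga2b was at -0.70 and -0.62 and Gp1ba at -0.60 and -0.80 within slides 2 and 3. With the processed signal Gp1ba was at -1.78, Slc4a1 at -1.50 and Itga2b at -1.16, and all 3 were called.

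The third comparison asked whether the effects of the routes differed, as the aspiration difference minus the inhalation difference. Of the 9 genes 4 passed, all with a positive value, where 28.6% of all tested genes passed with a positive and 28.5% with a negative value, 57% in all. They were Bpgm (0.86 ± 0.17, limma adjusted p = 0.000397), Pf4 (0.85 ± 0.16, 0.00024), Itga2b (0.64 ± 0.14, 0.00115) and Gp1ba (0.45 ± 0.12, 0.00384). Bpgm and Gp1ba fell in both comparisons and further after inhalation, Itga2b fell after inhalation and did not pass after aspiration, and Pf4 rose after aspiration and did not pass after inhalation. With median centring the Gp1ba call was lost (0.31, adjusted p = 0.086) and Ppbp passed (0.56, 0.00827).

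For the other 5 genes the difference of effects did not pass. Alas2 was at 0.16 ± 0.29 (limma adjusted p = 0.667), Hbb-b2 at -0.10 ± 0.28 (0.776) and Gp9 at 0.09 ± 0.17 (0.663), and the Hbb-b2 value turned positive without aspirated rCNT replicate 3 (0.06), PBS replicate 2 (0.01), inhaled rCNT replicate 2 (0.16) or untreated replicate 1 (0.03). Slc4a1 at 0.48 ± 0.21 (limma adjusted p = 0.0621) passed without PBS replicate 2 (0.57) or 3 (0.56), inhaled rCNT replicate 1 (0.56) or 2 (0.57), or untreated replicate 1 (0.58). Ppbp at 0.36 ± 0.18 (limma adjusted p = 0.0901) passed with median centring and also without aspirated rCNT replicate 1 (0.44) or untreated replicate 1 (0.44). These values include any difference between PBS and untreated lungs, the controls of the 2 routes.

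That difference between controls was tested directly. PBS lungs were lower than untreated lungs in 7 of the 9 genes and higher in 0, where 33.2% of all tested genes were called lower and 26.3% higher. Ppbp was lower by 0.86 ± 0.12 (limma adjusted p = 1.58e-05), Alas2 by 0.82 ± 0.20 (0.00213) and Slc4a1 by 0.70 ± 0.14 (0.000545). Bpgm was at -0.52, Gp9 at -0.43, Gp1ba at -0.39 and Itga2b at -0.36, and all 4 were called, although Gp9 and Itga2b were each at -0.23 and no longer called with median centring. Hbb-b2 was at -0.29 (limma adjusted p = 0.197) and Pf4 at -0.23 (0.0734), and neither passed. Pf4 passed without untreated replicate 1 (-0.29, adjusted p = 0.0393), and at -0.23 without aspirated rCNT replicate 3 (0.0485) or inhaled rCNT replicate 2 (0.0455).

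Across all 4 groups the other comparisons join routes. Aspirated rCNT lungs were lower than untreated lungs in 8 of the 9 genes and higher in 1 (Pf4), where 38.4% of all tested genes were called lower and 29.4% higher. Inhaled rCNT lungs were lower than PBS lungs in 5 genes and higher in 0, where 27.6% were called lower and 27.5% higher. Aspirated rCNT lungs were higher than inhaled rCNT lungs in 3 genes and lower in 3, where 28% were called higher and 33.4% lower. With median centring 3 were higher and 0 lower.

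Over the 4 groups, 8 of the 9 genes had their highest mean in untreated lungs and Pf4 had its highest mean after aspirated rCNT. Alas2 ran from untreated (12.38 ± 0.35, SD, n = 4) to PBS (11.56 ± 0.37, n = 4), inhaled rCNT (10.91 ± 0.30, n = 3) and aspirated rCNT (10.28 ± 0.32, n = 4), and each neighbouring pair passed limma's test, at adjusted p = 0.00213, 0.0224 and 0.0142. The step between PBS and inhaled rCNT was lost without PBS replicate 2 or 3 or without inhaled rCNT replicate 1 or 3, and with trend and robust variance (-0.62, adjusted p = 0.0518), and that between the rCNT groups was lost without inhaled rCNT replicate 2 (-0.52, adjusted p = 0.0931) and with median centring (-0.11, 0.643). Hbb-b2 had the same order, but untreated and PBS did not differ beyond their spread (limma adjusted p = 0.197), nor did the rCNT groups (0.109). Slc4a1 also had this order, with PBS and inhaled rCNT (limma adjusted p = 0.208) and the rCNT groups (0.227) not told apart. Against untreated lungs, aspirated rCNT was at -2.09 ± 0.20 for Alas2 and at -1.48 ± 0.19 for Hbb-b2.

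Bpgm, Gp1ba and Itga2b had another order, with inhaled rCNT lowest. Bpgm ran from untreated (11.45 ± 0.32, SD, n = 4) through PBS (10.93 ± 0.20, n = 4) and aspirated rCNT (10.60 ± 0.06, n = 4) to inhaled rCNT (10.22 ± 0.17, n = 3), with limma adjusted p = 0.00101, 0.024 and 0.0245 for the steps. The last step was lost without aspirated rCNT replicate 2 (0.28, adjusted p = 0.0846) or 4 (0.28, 0.0837) or inhaled rCNT replicate 3 (0.30, 0.0893). For Gp1ba the rCNT groups were not told apart (limma adjusted p = 0.582), and for Itga2b PBS and aspirated rCNT were not (0.871). Ppbp was at nearly one level in inhaled rCNT (9.06 ± 0.13, n = 3) and PBS lungs (9.01 ± 0.20, n = 4; limma adjusted p = 0.791). Pf4 ran from aspirated rCNT (12.16 ± 0.23, n = 4) to untreated (11.72 ± 0.16, n = 4), inhaled rCNT (11.52 ± 0.13, n = 3) and PBS lungs (11.49 ± 0.14, n = 4), and the lowest 3 were not separated step by step (limma adjusted p = 0.192 and 0.73). With median centring Pf4 and Ppbp were lower after inhaled rCNT than after PBS, by 0.48 (adjusted p = 0.000977) and 0.38 (0.0106).

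Within groups the erythroid genes varied more than most genes. The pooled within-group SD was 0.378 for Hbb-b2 and 0.337 for Alas2, above 98.8% and 98.2% of the genes tested, while the median gene had 0.121. Slc4a1 had 0.237 and Bpgm 0.215. Among the platelet genes the SD ran from 0.116 for Gp1ba to 0.194 for Gp9.

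Once group means were taken off, the 4 erythroid genes varied together over the 15 samples. Their 6 pairs had Pearson r from 0.73 to 0.89 with a median of 0.82, and the highest value was that of Alas2 with Hbb-b2. The 10 pairs of platelet genes had r from 0.14 to 0.79 with a median of 0.37, with Gp9 and Ppbp at 0.79 and Ppbp and Pf4 at 0.68. The 20 pairs of an erythroid and a platelet gene had r from -0.01 to 0.63 with a median of 0.37. These correlations describe samples that share arrays, slides and one normalisation. Pf4 and Ppbp, which differed in sign between the aspiration groups, thus had a positive correlation within groups.

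**Figure D3:**
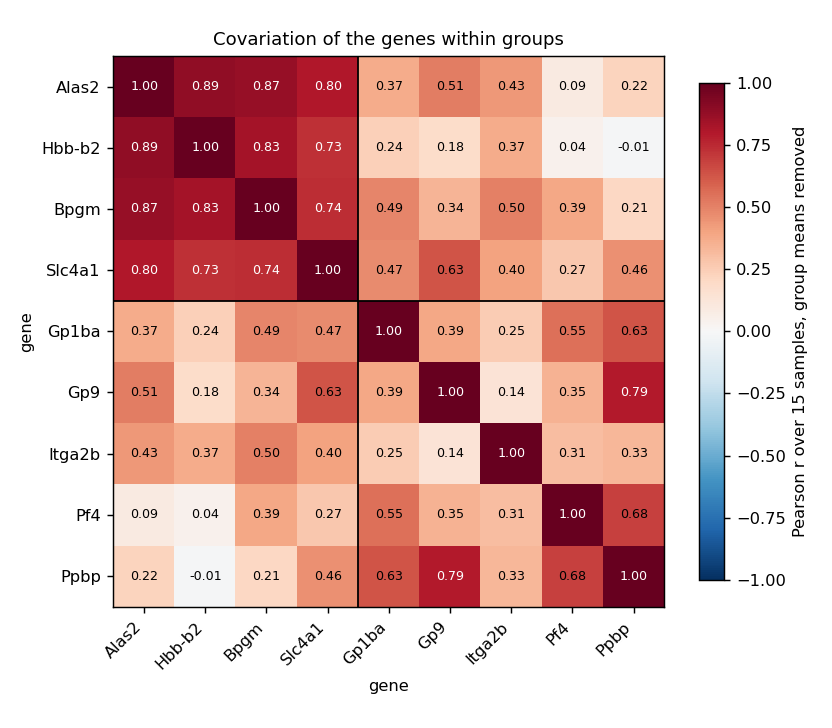
Pearson r between each pair of the 9 genes (both axes) over 15 samples after removing group means; the lines divide erythroid from platelet genes. The erythroid block at the upper left holds values of 0.73 to 0.89.

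The genes most like the erythroid genes in their pattern were found by the Pearson r of every named gene with the mean of the 4 erythroid genes. Each gene was centred on its mean and not scaled, so genes that vary more weigh more. Over the 15 samples these were Unc93a2 (r = 0.967), Adi1 (0.948), Fbln5 (0.946), Cab39l (0.942) and Trappc9 (0.939). With group means removed they were Slc6a20a (0.964), Hbb-bt (0.924), Spata31d1b (0.902) and Unc93a2 (0.899). For the mean of the 5 platelet genes they were Treml1 (r = 0.974), Alox12 (0.956), Cltb (0.944), Ccn5 (0.944) and Lmf2 (0.936), and with group means removed Treml1 (0.918), BC031361 (0.901), Alox12 (0.854), Tyro3 (0.840) and Nrgn (0.83). Treml1, a receptor of platelet granules, and Alox12, the platelet lipoxygenase, appeared in both platelet rankings, while Hbb-bt is an adult beta globin gene.

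The other globin genes were measured by separate probes. After aspirated rCNT Hba-a1, an alpha globin gene, was at -1.30 ± 0.21 (limma adjusted p = 9.98e-05), Hbb-b1 at -1.33 ± 0.24 (0.000235), Hbb-bt at -1.23 ± 0.17 (1.87e-05) and Hba-a2 at -0.81 ± 0.26 (0.016). After inhaled rCNT Hba-a1 was at -1.64 ± 0.23 (limma adjusted p = 1.47e-05), Hbb-b1 at -1.38 ± 0.26 (0.000238) and Hbb-bt at -0.53 ± 0.18 (0.0204), and Hba-a2 at -0.63 ± 0.28 did not pass (0.0605). The Hba-a2 call after aspiration was lost without aspirated rCNT replicate 2 or PBS replicate 1, Hba-a2 passed after inhalation without aspirated rCNT replicate 2 or untreated replicate 1, and the Hbb-bt call after inhalation without inhaled rCNT replicate 1 or 3 or untreated replicate 3 or 4 and within either slide. The files name the Hbb-b1 probe differently, some by an accession of Hbb-b1 and some by one of Hbb-bs, and these near-identical genes cannot be told apart. The embryonic genes Hbb-bh1 and Hbb-y were dim, well above background in 10 and 4 of the 15 samples.

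Other genes of the red cell lineage came from a list of 45, of which 31 were tested. After aspirated rCNT 7 were higher and 16 lower, with a median of -0.17 against -0.04 for all genes, and after inhaled rCNT 3 were higher and 21 lower, with a median of -0.43 against -0.02. The shares of all genes called were 20.7% higher and 26.4% lower after aspiration and 28.4% and 32.5% after inhalation. Dmtn, which bundles actin under the red cell membrane, fell by 0.65 ± 0.07 after aspiration and by 0.81 ± 0.07 after inhalation, and Gypc, a glycophorin, by 0.37 ± 0.05 and 0.90 ± 0.06. Car2, the carbonic anhydrase of red cells and many other cells, was at 0.21 ± 0.12 after aspiration, which did not pass, and fell by 1.12 ± 0.13 after inhalation. Epb41, protein 4.1 of the membrane skeleton, was at -0.71 after aspiration and at 0.45 after inhalation (-0.01 with median centring, where it did not pass). The defining erythroid gene Klf1, and Rhd, Rhag, Add2, Trim58 and Cldn13, had 0 of the 15 samples well above background.

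Gata1 and Nfe2, transcription factors of the lineage, rose after aspiration while the globins fell. Gata1, the regulator of red cells and megakaryocytes that eosinophils and mast cells also use, rose by 1.60 ± 0.15 (limma adjusted p = 3.06e-07) after aspirated rCNT and fell by 0.79 ± 0.16 (0.000528) after inhaled rCNT. Nfe2, a factor of platelet production, rose by 0.85 ± 0.13 (limma adjusted p = 6.95e-05) and fell by 1.11 ± 0.14 (7.13e-06). Tal1 fell by 0.65 ± 0.06 (limma adjusted p = 1.86e-07) after aspiration. For Gata1 and Nfe2 the difference of effects was 2.38 and 1.96 (limma adjusted p = 2.62e-07 and 6.26e-07). In the same samples the eosinophil genes Prg2 and Ear6, from a list added after values were seen, rose by 2.99 and 1.52 after aspiration. After inhalation Ear1 and Siglecf of the same list were at -1.99 and -1.71, and which cells gave their signal was not tested. Prg2 was at 0.01 after inhalation, with 0 inhaled rCNT and 0 untreated samples well above background. Of that list's 7 tested genes 4 were higher and 0 lower after aspiration, where 20.7% and 26.4% of all genes were. After inhalation 1 was higher and 4 lower, where 28.4% and 32.5% of all genes were. The log2 of their summed intensity was 15.48 to 15.93 after aspirated rCNT and 15.47 to 15.71 after PBS. It was 13.70 to 13.80 after inhaled rCNT and 15.14 to 15.35 in untreated lungs. Most of this sum was Ear2, with mean levels of 15.43, 15.32, 13.43 and 14.88 in the same order of groups. The defining gene Epx had 0 samples well above background. The part of these cells in the Gata1 values was not tested.

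Genes of haem synthesis other than Alas2 went both ways. Of 13 tested, 3 were higher and 6 lower after aspirated rCNT and 6 higher and 6 lower after inhaled rCNT. With median centring these counts were 2 and 2 after aspiration and 2 higher and 7 lower after inhalation. Of all genes 20.7% and 26.4% were called higher and lower after aspiration and 28.4% and 32.5% after inhalation. After aspiration Slc25a37, the mitochondrial iron importer, was at -0.64 ± 0.08 and Alas1, the form of the first enzyme used by all tissues, at -0.53 ± 0.10, while Cpox was at 0.48 ± 0.08. After inhalation Ppox was at 1.07 ± 0.06 and Slc25a37 at 0.95 ± 0.09, while Slc25a39 was at -0.98 ± 0.07 and Alad at -0.93 ± 0.08. These 7 values passed limma's test. Slc25a37 and Alas2, which supply the same pathway in red cells, differed in sign after inhalation.

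Of 10 genes that clear haemoglobin and haem, 7 were higher and 1 lower after aspirated rCNT, and 2 were higher and 5 lower after inhaled rCNT. Among all tested genes, 20.7% were called higher and 26.4% lower after aspiration, and 28.4% and 32.5% after inhalation. The 2 higher are a share of 20%, against 28.4% of all genes, and the 5 lower became 3 within slide 3 or with array weights. Hmox1, the enzyme that degrades haem, rose by 1.15 ± 0.08 (limma adjusted p = 5.69e-09) after aspiration and was at 0.01 ± 0.08 (0.926) after inhalation, with values from -0.34 to 0.06 over the alternatives, 2 of which called it lower. Hpx, the plasma protein that binds haem, was at 0.94 ± 0.11 after inhalation, and Slc48a1, a haem transporter, fell by 0.58 ± 0.07 and 0.72 ± 0.08.

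Of 40 other platelet genes 38 were tested. After aspirated rCNT 14 were higher and 9 lower, with a median of 0.05 against -0.04 for all genes. After inhaled rCNT 5 were higher and 23 lower, with a median of -0.35 against -0.02, and within slide 2 alone 4 were higher and 14 lower. Of all genes 20.7% were called higher and 26.4% lower after aspiration, against 36.8% and 23.7% of these 38. After inhalation 28.4% of all genes were called higher and 32.5% lower, against 13.2% and 60.5% of these 38. The difference of effects passed with a positive value for 21 and a negative value for 6, with a median of 0.42, where 28.6% and 28.5% of all genes did so.

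The receptor genes in the list did not share a pattern. Gp1bb, Gp6 and Treml1 passed after inhalation and not after aspiration, while P2rx1, P2ry1, P2ry12 and Tbxa2r passed after both. After aspiration Gp1bb, the partner of Gp1ba and Gp9, was at 0.11 ± 0.06, Gp6, the collagen receptor, at -0.09 ± 0.08, Treml1 at -0.11 ± 0.11 and Itgb3, the partner of Itga2b, at 0.19 ± 0.10, and none of these 4 passed (limma adjusted p = 0.134 to 0.478). Gp5, the fourth subunit of the von Willebrand receptor, was at -0.21 ± 0.08 (limma adjusted p = 0.0317), a call lost with a replicate block or without aspirated rCNT replicate 2, 3 or 4 or PBS replicate 3 or 4. After inhalation Gp1bb was at -0.23 ± 0.07, Gp5 at -0.47 ± 0.08, Gp6 at -0.46 ± 0.09 and Treml1 at -0.62 ± 0.12, all called (limma adjusted p = 0.000163 to 0.00627), and Itgb3 at 0.08 ± 0.11 was not (0.529). Within slide 2 Gp1bb, Gp6 and Treml1 no longer passed. The difference of effects passed for Gp1bb (0.34), Gp6 (0.37) and Treml1 (0.51) and not for Gp5 (0.25) or Itgb3 (0.10), and without inhaled rCNT replicate 2 those of Gp6 and Treml1 were lost.

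Other genes of the platelet list, chosen by their smallest p-values, changed more. After aspiration P2rx1, an ATP receptor, rose by 1.56 ± 0.10, F5, coagulation factor V, by 1.45 ± 0.11, Gfi1b, a repressor of the lineage, by 1.14 ± 0.09 and Selp, P-selectin, by 1.04 ± 0.07 (limma adjusted p = 4.46e-09 to 7.17e-08). After inhalation Tbxa2r, the thromboxane receptor, fell by 1.45 ± 0.11, Fermt3, an activator of integrins in blood cells, by 1.25 ± 0.13, Fli1 by 0.86 ± 0.07 and Gng11 by 0.83 ± 0.07 (limma adjusted p = 1.83e-08 to 7.63e-07). Fermt3 rose by 0.77 ± 0.12 after aspiration.

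**Figure D4:**
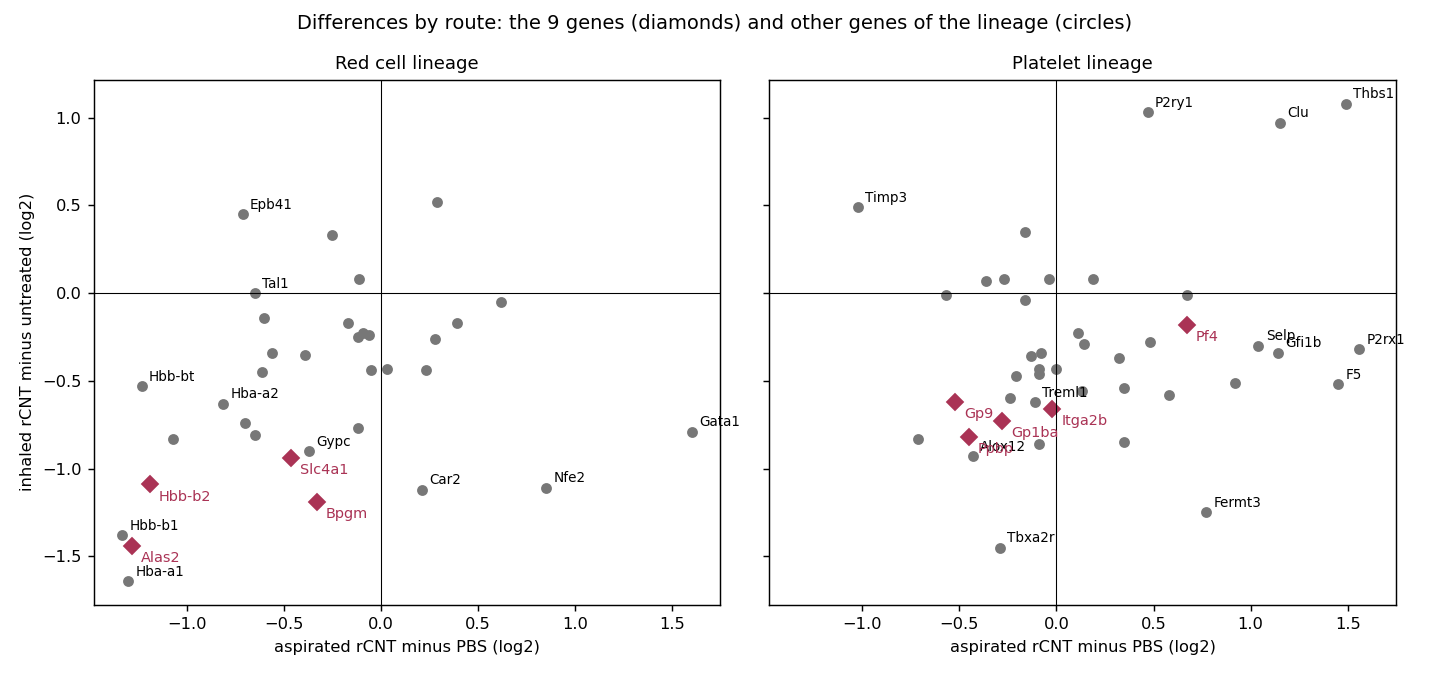
Log2 difference after aspirated rCNT (x axis) and after inhaled rCNT (y axis) of the 4 erythroid and 5 platelet genes (diamonds) and of the 31 and 38 other tested genes of each lineage (circles). Alas2, Hbb-b2 and Hba-a1 lie at the lower left, and Gata1 and Nfe2 lie to the right below 0.

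Markers of other cells moved in the same comparisons. Of all genes 20.7% were called higher and 26.4% lower after aspiration, and 28.4% and 32.5% after inhalation. Of 13 genes of macrophages, cells that are known to express Pf4, 10 were higher and 3 lower after aspiration. After inhalation 6 were higher and 3 lower. With median centring the inhalation counts were 4 higher and 6 lower. The log2 of their summed intensity was 18.53 to 18.82 after aspirated rCNT, 17.40 to 17.60 after PBS, 17.76 to 17.88 after inhaled rCNT and 17.16 to 17.40 in untreated lungs. C1qb rose by 2.20 ± 0.08 and C1qc by 1.93 ± 0.08 after aspiration, Chil3 was at 1.18 and Lyz2 at -1.45 after inhalation, and all 13 genes were well above background in all 15 samples. Within groups the mean of the centred macrophage genes had r = 0.70 over 15 samples with that of the platelet genes and 0.06 with that of the erythroid genes. The part of macrophages in the Pf4 values was not tested.

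Endothelial genes fell with the erythroid genes, 20 of 20 after aspiration and 16 of 20 after inhalation, with 1 higher, where 26.4% and 32.5% of all genes were called lower. Kdr was at -1.04 and Eng at -0.84 after aspiration, and Sox18 at -1.22 and Clec14a at -1.39 after inhalation. Their summed log2 intensity was 17.49 to 17.71 after aspirated rCNT, 18.28 to 18.46 after PBS, 17.93 to 18.21 after inhaled rCNT and 18.31 to 18.50 in untreated lungs, and all 20 genes were well above background in every sample. Cardiac muscle genes had 18 of 20 lower after aspiration and 9 of 20 lower after inhalation. Against untreated lungs PBS lungs had 15 higher and 2 lower, where 26.3% of all genes were called higher and 33.2% lower. Which tissue gave the signal of the cardiac muscle genes was not tested. Of these genes Myh7 was at -1.64 and Cox8b at -1.72 after aspiration, and Myh7 at -0.92 and Cox6a2 at -1.13 after inhalation. Their summed log2 intensity was 15.32 to 15.82, 16.62 to 16.92, 14.80 to 15.57 and 15.01 to 16.20 in the same order of groups. Over the 15 samples with group means removed, r with the erythroid mean was 0.91 for the other erythroid genes, 0.46 for lung epithelium, 0.41 for eosinophil, 0.07 for endothelial and -0.25 for cardiac genes, and from -0.28 to 0.29 for the other 8 lists. With the platelet mean it was 0.11 for the other platelet genes. The part of tissue composition in the erythroid values was not tested.

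Lists of lymphocytes, granulocytes and epithelium are given by their counts, beside 20.7% of all genes called higher and 26.4% lower after aspiration and 28.4% and 32.5% after inhalation. Of 13 B cell genes 0 were higher and 1 lower after aspiration and 12 were lower after inhalation, and of 13 T cell genes 3 were higher and 2 lower and then 1 higher and 11 lower. Of 14 neutrophil genes 7 were higher and 1 lower after aspiration and 5 higher and 5 lower after inhalation, and of 6 mast cell and basophil genes 1 was higher and 2 lower and then 1 higher and 1 lower. The 10 lung epithelium genes were well above background in all 15 samples, and 2 were higher and 6 lower after aspiration and 2 higher and 3 lower after inhalation. With median centring the epithelial counts after inhalation were 1 higher and 7 lower, and the 3 T cell genes higher after aspiration were 7 with array weights. The members with the smallest p-values were Ebf1 (-0.51), Cd6 (0.81), Cd5 (0.71), Ltf (2.22), Cd177 (1.99), Gata2 (-1.06), Hdc (0.82), Hopx (-1.12) and Ager (-0.70) after aspiration. After inhalation they were Ms4a1 (-3.17), Fcmr (-3.02), Bcl11b (-1.26), Cd5 (-1.34), Ltf (3.22), Lcn2 (1.90), Tpsb2 (1.53), Cpa3 (-0.61), Foxj1 (1.57) and Aqp5 (-0.42). The neutrophil list was not of one sign there, with S100a8 at -2.63, S100a9 at -2.64, Mmp9 at -1.28 and Cxcr2 at -0.76, named here after their values were seen. The part of these cells in the erythroid and platelet values was not tested.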

How the data were processed

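Lung RNA was hybridised to 2-colour Agilent arrays, and each of the 15 samples is 1 channel of 14 arrays on 3 slides. Per the file headers, spots were extracted with Agilent Feature Extraction 11.0.1.1 on a design of build mm9, and the submitters' processing notes also name limma. The deposited intensity values used are the median spot and background brightness, with the processed intensity, background-subtracted by the authors' software, as an alternative. The deposited series table, taken as log2, served as an alternative. Its columns correlated at 0.998 to 1 with the sample's own channel, with medians of 6.58 to 6.59, and the base of its logarithm and its centring stay unknown.

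Own-channel values underwent normexp correction (offset 50), the log2 transform and quantile normalisation. Control spots and flagged spots (106 to 154 per sample) were left out, and 0 spots were saturated. The filter kept 34276 of 55681 probes, those that 3 or more samples of some group showed well above background, and the brightest probe stood for a gene. Of 29123 probes with a RefSeq accession 27656 matched a symbol in a table of GRCm38.p6, used for names, neighbours and the printed promoters. Accessions of 3159 probes differed between files, and of 0 of the 9 genes' probes. One model with the 4 groups and dye was fitted to all samples in limma 3.58.1 (R 4.3.3), two-sided, after tests on simulated data. Figures used matplotlib 3.10.9 in Python 3.11.15. The number of arrays limits the precision.

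The 9 genes and all gene lists were chosen with earlier results of these data known. Genes named beyond the 9 are globins and lineage genes fixed by name, the genes most like the 2 profiles, and the members of each list with the smallest p in each main comparison, up to 4 in the erythroid, haem synthesis and platelet lists and up to 2 in the others; some genes these rules name are not reported here. Alternatives changed the background correction, normalisation, filter, probe choice, covariates, variance model or samples.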

Additional observations from a re-analysis of the deposited data

Results flagged for a closer look

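Aspirated rCNT replicate 3 had an Alas2 level of 9.81, below the other samples of its group at 10.40 to 10.50, a gap large for the range of 4 samples. Of 27 combinations of gene and group of 4 samples examined, this was 1, and chance alone marks about 1 in 20. The effect of aspiration differed from that of inhalation by a test of the difference for Bpgm (0.86), Pf4 (0.85), Itga2b (0.64) and Gp1ba (0.45) on the log2 scale, with limma adjusted p = 0.000397, 0.00024, 0.00115 and 0.00384. Of all tested genes 57% passed that test.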

How the results depend on the processing

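Of 1856 recomputed values of the 9 genes, 1775 kept their direction and their side of the threshold, 44 lost and 17 gained a call, and 20 changed sign. The count of genes called stayed within 1.5 times for aspirated rCNT against PBS and for inhaled rCNT against untreated. For inhaled rCNT against PBS it went from 5 to 8 with median centring, and from 3 upward when single replicates were left out, the 3 arising without PBS replicate 3 or inhaled rCNT replicate 1 or 3. For aspirated against inhaled rCNT it went from 6 (3 higher and 3 lower) to 3 (all higher) with median centring, and to 3 at the lowest when 1 sample was left out (aspirated rCNT replicate 4, or inhaled rCNT replicate 2). It was also 3 without both aspirated rCNT replicate 3 and inhaled rCNT replicate 2, a setting added after seeing the data. The cause was not tested.

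All changes of sign were in values that did not pass in the reported fit. The Hbb-b2 difference of effects was 0.50 with median centring, 0.03 with slide as a block and with array weights, 0.26 with the added setting, and from -0.24 to 0.16 with 1 sample left out, being positive without aspirated rCNT replicate 3 (0.06), PBS replicate 2 (0.01), inhaled rCNT replicate 2 (0.16) or untreated replicate 1 (0.03). For aspirated against inhaled rCNT, Hbb-b2 was 0.17 and Gp1ba -0.04 with median centring, and Gp1ba ran from 0 (without replicate 2 of either group) to 0.11 with 1 sample left out. The Gp9 difference of effects was -0.08 with the processed signal, and Itga2b after aspiration was 0.03 with loess normalisation and 0.09 without PBS replicate 3. For inhaled rCNT against PBS, Pf4 was -0.48 and Ppbp -0.38 with median centring. With 1 sample left out Pf4 ran from -0.02 (inhaled rCNT replicate 1) to 0.20, and Ppbp from -0.08 (PBS replicate 1) to 0.11, with -0.02 without inhaled rCNT replicate 1. The cause was not tested.

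Among the lists, calls of haem synthesis genes after aspiration went from 3 higher and 6 lower to 2 and 2 with median centring, and after inhalation from 6 and 6 to 2 and 7. The same setting moved other platelet genes from 14 and 9 to 13 and 5 after aspiration and from 5 and 23 to 3 and 25 after inhalation, and other erythroid genes after inhalation from 3 and 21 to 1 and 26. Other platelet genes after inhalation were 4 and 14 within slide 2, where fewer samples enter. Counts of mast cell and basophil genes (1 and 1 after inhalation) and of T cell genes after aspiration (3 and 2) moved by over 1.5 times under several alternatives, to 1 and 3 with no filter on dim probes and to 7 and 2 with array weights. With the replicate block, counts stayed at 8, 8 and 4 genes for aspiration, inhalation and the difference of effects, with Alas2 at -1.28 and -1.47. Same-numbered samples correlated at -0.43 to -0.08 for the aspiration groups and at -0.06 to 0.08 for the inhalation groups, so the numbers were not taken as pairs. The block on the array shared by 2 samples was not run, since its correlation could not be estimated from 14 arrays. The fit to the compared samples only has no value for the difference of effects, and the filter on all samples leaves out Gp1ba. For the dim probes of Gp1ba, Slc4a1 and Itga2b the size of a difference changed with the background correction. The sign changes of Gp1ba and Itga2b were in values that did not pass in the reported fit.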
